A study of Mus musculus with 16 samples.

Results

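The genes described here encode the pore-forming and auxiliary subunits of potassium, sodium, calcium and HCN channels. They were found by name among the protein-coding genes of the count table, as the Kcn, Scn, Cacn and Hcn families, with a pair of calcium channel genes left out, and were selected on their measured level: 1 CPM (counts per 1e6 counts of the library) or more in 3 or 4 of the 4 libraries of 1 group or more. The names matched 135 entries, of which 2 lay on patch scaffolds and 50 stayed under this level, so that 83 channel genes remained of the 14897 genes tested and the 46078 of the table. The members were thus chosen by the level itself, which is given below as a description. Just inside the level were Cacng2, with 1.05 CPM in the library that decided, and Kcnk10, with 1.11 CPM. Just outside were Scn8a, with 0.971 CPM, and Kcnc2, with 0.909 CPM. Of the 83 genes, 55 reached the level in all 4 groups, 21 in 2 or 3 groups and 7 in 1 group only, so that the last 7 are members only through the group in which they were high. Of the genes named here, Kcnk12 and Kcnk10 reached it only in polyA control, Cacng2 only in polyA miR-106b, Kcnj16 and Kcnma1 only in the polyA groups, Kcnn3 only in the Ago2-IP groups, Cacng4 and Kcnab3 in all but Ago2-IP control, and Kcnk13 and Kcnmb1 in all but polyA control. A lower value in a group where a gene fell short is in part given by this choice.

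The cells were cultured juxtaglomerular (JG) cells of the mouse, the renin-producing cells of the kidney, engineered to carry YFP driven by the renin promoter. They received miR-106b or a non-mammalian microRNA precursor as control, and RNA was taken 48 h later. PolyA RNA came from 4 control and 4 miR-106b cultures, and RNA bound to immunoprecipitated Ago2 (Ago2-IP), the protein that holds miRNAs on their target mRNAs in RISC, came from 4 other cultures of each kind, which gave 16 libraries. The same engineered cells served all 4 groups, so that the controls carried the reporter as well.

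Voltage-gated channels open and close with the membrane potential, and each is built from a pore-forming alpha subunit and smaller subunits that set its gating and its transport to the membrane. Inward rectifier and tandem-pore potassium channels hold the resting potential, sodium channels carry the upstroke of the action potential in heart, nerve and skeletal muscle, calcium channels admit the calcium that drives contraction and secretion, and HCN channels carry the pacemaker current of the sinus node. In JG cells calcium entry restrains renin release, and ATP-sensitive and calcium-activated potassium channels are known there from the smooth muscle lineage to which these cells belong.

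The label was checked against marker genes before the channels were read. Ren1, which encodes renin, had 0 counts in all 16 libraries, where 3 counts, the limit that a count of 0 allows, correspond to 0.317 CPM in the deepest library and 1.16 CPM in the shallowest. Of 25 cardiac muscle markers 24 were tested, and their level summed over the 25 genes was 24752 to 35196 CPM in polyA control, 48318 to 83652 CPM in polyA miR-106b, 111849 to 119296 CPM in Ago2-IP control and 108648 to 119289 CPM in Ago2-IP miR-106b libraries. Myh6, the alpha myosin heavy chain of heart muscle, alone had a mean of 10019 CPM in polyA control and 39469 CPM in Ago2-IP control. No read was thus assigned to the defining transcript of the labelled cell type, and the libraries hold transcripts of heart muscle. The paper measured renin mRNA in these cells by RT-qPCR, and whether its reads were lost in assignment here was not tested. In polyA control, fibroblast markers summed to 11126 to 13066.5 CPM and mural and smooth muscle markers to 2823 to 3089 CPM. Library totals ran from 2579086 to 9459585 counts.

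The mature strand of the transfected miRNA and the seed sites of 4 channel genes are shown because the seed, bases 2 to 8 (in capitals in the miRNA), pairs with its complement in 3′UTRs. A site of the 8mer kind pairs with the seed and is followed by an A, and a 7mer-m8 site lacks that A. The sites below were taken from the longest 3′UTR per gene of the annotation GENCODE M21 (GRCm38), in capitals, with the neighbouring bases. They are 8mer sites of 3 of the 83 genes and the 7mer-m8 site of Cacna1e, whose Ago2:polyA ratio rose; Kcna2 and Kcnk10 were chosen for their sites alone. The miRNA sequence is that of RefSeq.
miR-106b-5p: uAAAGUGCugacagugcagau
Kcnv2, chr19:27334108-27334115, plus strand: tgcctcacatcGCACTTTAgctagatgtat
Kcna2, chr3:107113059-107113066, plus strand: ttattctgtgtGCACTTTActtagaagtgg
Kcnk10, chr12:98432034-98432041, minus strand: agcactcctttGCACTTTActcgattttct
Cacna1e, chr1:154397933-154397939, minus strand: caccagctcttGCACTTTggctgcccccag
The coordinates are those of the capital letters. The site of Kcnk10 lies past the end of the gene as the count table bounds it, so reads over it may not have been counted to the gene.

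Kcnk3, an acid-sensitive tandem-pore potassium channel, had the highest level per length of exon among the 83 genes, at 55.2 ± 9.21 CPM per kilobase in polyA control libraries (SD, n = 4 libraries, as for all levels). Cacnb3, a calcium channel beta subunit, had 26 ± 0.101 CPM per kilobase, and Kcng2, a silent potassium channel subunit that modifies other alpha subunits, had 23.8 ± 3.49. Kcnk3 stood above both by more than the SDs, while Cacnb3 and Kcng2 did not differ beyond their spread. Cacng7 followed at 22.6 ± 1.18, Kcnip2, the partner of the transient outward current channels, at 19.8 ± 3.31, and Kcnh2, which carries the rapid delayed rectifier current, at 10.8 ± 1.57 CPM per kilobase. Hcn2, a pacemaker channel, at 10.7 ± 0.816, did not differ from Kcnh2 beyond the spread.

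In Ago2-IP control libraries the order changed. Kcnk3 was again first at 220.3 ± 8.99 CPM per kilobase, and of the genes named here Kcng2 came next at 98 ± 7.25, before Kcnip2 at 76.3 ± 4.28, Kcnh2 at 45.4 ± 3.22, Kcnj11, the pore of the ATP-sensitive potassium channel of heart muscle, at 36.2 ± 1.15, and Hcn2 at 23.3 ± 1.51. Cacnb3 and Cacng7 lay below these, at 6.79 ± 0.785 and 8.51 ± 1.03 CPM per kilobase. Lengths are those of the annotated exons, and for Kcnj11 and Scn4a the interval in the count table is shorter than this length, so that their levels per length may be too low.

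**Figure D1:**
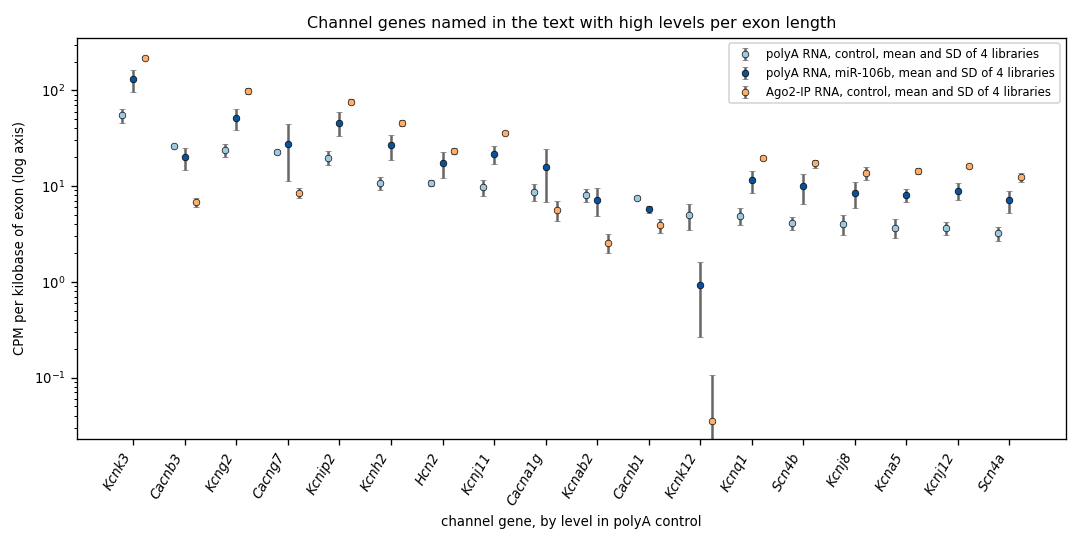
Mean level per kilobase of annotated exon (log axis, CPM per kilobase) of channel genes named in the text with high levels, with the SD over 4 libraries, in polyA control, polyA miR-106b and Ago2-IP control libraries. Kcnk3 leads in all 3 groups, while Cacnb3, Cacng7, Kcnab2, Cacnb1 and Kcnk12 lie lower in Ago2-IP than in polyA control.

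With miR-106b, 34 of the 83 channel genes rose in polyA RNA and 3 fell, by edgeR's quasi-likelihood test with Benjamini-Hochberg adjustment over all 14897 genes at 0.05. The genes that rose include the sodium channel subunit gene Scn4b, the delayed rectifier channels Kcnh2 and Kcnq1, the ATP-sensitive channel genes Kcnj11 and Kcnj8, the pacemaker channels Hcn2 and Hcn4 and the calcium channel subunits Cacna1h and Cacnb2. Those that fell were Kcnk12, Cacnb1 and Kcnj16, named because there were only 3. Of the 55 genes that reached the level in all 4 groups 32 rose and 1, Cacnb1, fell, while Kcnk12 and Kcnj16 reached it in 1 and 2 groups. Over all genes tested, 40.5% were called, 19.0% higher and 21.5% lower, and the counts by role below stand beside these shares. The median log2 difference of the 83 genes was 0.87, beside -0.05 for all genes tested, and 34 of them lay between 1.0 and 1.4, as did 8.97% of all genes. In 33 of the 83 genes no miR-106b library overlapped a control library, beside 38.3% of all genes. The count of changed members ran from 30 without polyA control replicate 2 to 41 without polyA miR-106b replicate 3.

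**Figure D2:**
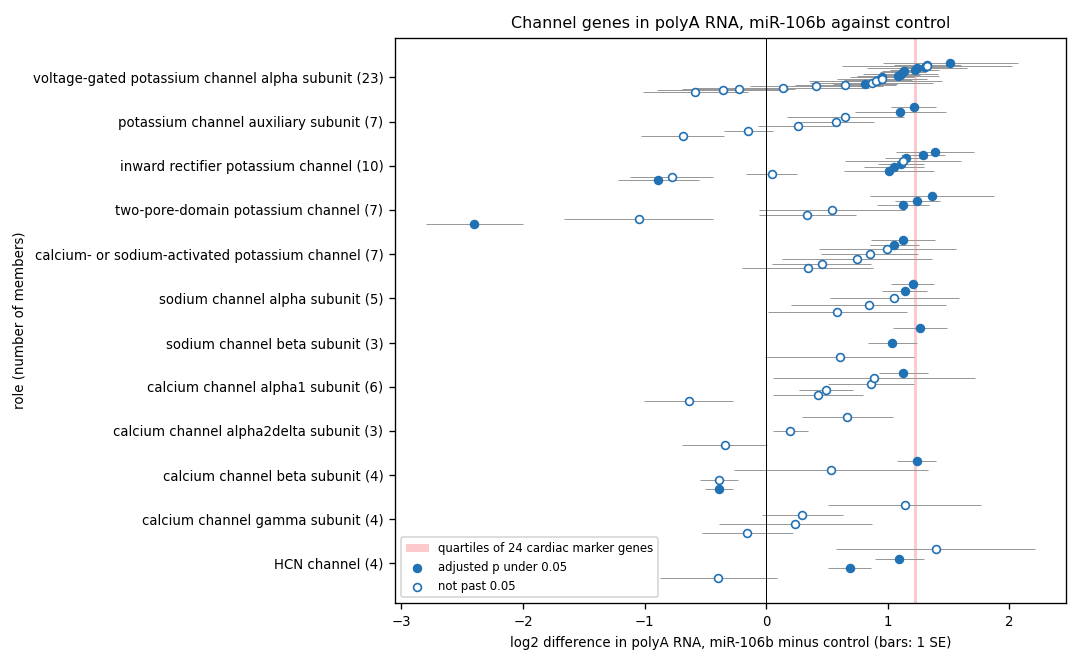
Log2 difference in polyA RNA, miR-106b minus control, of each of the 83 channel genes (points, bars 1 SE) by the role of the protein; filled points have an adjusted p under 0.05. The pink band spans the quartiles of 24 cardiac marker genes, and most filled points lie between 1.0 and 1.4, while Kcnk12 stands alone at -2.40.

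Of the sodium channel genes, 2 of 5 alpha and 2 of 3 beta subunits rose. Scn4b (ENSMUSG00000046480, chr9:45138436-45154152, GRCm38), an auxiliary subunit that shapes resurgent sodium current, had 20.4, 16.3, 23.2 and 22.2 CPM in the polyA control and 32, 66.1, 37 and 62.7 CPM in the polyA miR-106b libraries. All miR-106b libraries exceeded all controls, with replicates 2 and 4 the highest. The log2 difference was 1.26 (SE 0.22, adjusted p = 0.0011). The exact two-sided permutation test over the 8 libraries gave p = 0.0286, the smallest it can give. Groups of 4 without overlap always give this p, so it adds nothing to the lack of overlap. Scn4a, the skeletal muscle sodium channel, was called as well, at 1.14; it was chosen after its values were seen. The other alpha subunits tested (3 of 5) and the remaining beta subunit (1 of 3) did not pass. Of these, Scn7a had 1.05 (adjusted p = 0.13). It passed in the fit of all 16 libraries (1.17, adjusted p = 0.0334), with no filter on low counts (adjusted p = 0.0343) and without polyA miR-106b replicate 3 (1.42, adjusted p = 0.0136).

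Of 23 voltage-gated potassium channel alpha subunits 13 rose and none fell by edgeR's test, while 14 had an unadjusted p under 0.05, as had 49.1% of all genes. Kcnh2 (ENSMUSG00000038319, chr5:24319588-24351604) had 58.5, 44.4, 46.8 and 58.8 CPM in control and 88.5, 163, 103 and 161 CPM in miR-106b libraries, with no overlap and a log2 difference of 1.30 (SE 0.19, adjusted p = 0.000683). Kcnq1, which carries the slow delayed rectifier current together with Kcne1, had 22.8, 14.2, 21.6 and 21.9 CPM against 33.4, 54.3, 40.0 and 59.7 CPM, a difference of 1.22 (SE 0.20, adjusted p = 0.000797). Kcne1 itself, the small subunit of that current, was at 2.09 CPM in control and 2.45 CPM in miR-106b libraries and did not pass, with a log2 difference of 0.26 (SE 0.33, adjusted p = 0.556). Kcna5, the ultrarapid delayed rectifier of atrial muscle, rose by 1.14 (SE 0.19), without overlap. Kcng2 rose by 1.10 (SE 0.17), from 77.5, 63.9, 60.6 and 82.2 to 112, 167, 133 and 198 CPM.

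The genes of the transient outward current moved less evenly. Kcnip2 had 79.4, 57.7, 60.4 and 78.4 CPM in control and 118, 193, 126 and 203 CPM in miR-106b libraries, a log2 difference of 1.21 (SE 0.19, adjusted p = 0.000683). Its pore-forming partner Kcnd3 was called at 0.92 (SE 0.28, adjusted p = 0.0194), but not when polyA miR-106b replicate 2 or 4 was left out (adjusted p = 0.0718 and 0.0691). The other partner, Kcnd2, went from 8.07, 3.57, 4.5 and 5.07 to 7.62, 10.7, 9.66 and 8.9 CPM, with an overlap between control replicate 1 and the lowest miR-106b library, and its difference was 0.81 (SE 0.26, adjusted p = 0.0265). Leaving out polyA control replicate 2, 3 or 4 or polyA miR-106b replicate 2 took that call away, with adjusted p of 0.0628, 0.0546, 0.0536 and 0.0732. Kcnv2, another silent subunit, rose from 2.69, 2.94, 1.65 and 3.5 to 6.27, 8.3, 5.52 and 7.05 CPM, by 1.32 (SE 0.28). Kcna1, a low-threshold channel known from nerve axons, was low throughout, at 1.12 and 2.71 CPM, and rose by 1.24. Its call was lost without polyA control replicate 1 (1.15, adjusted p = 0.062) or polyA miR-106b replicate 2 (0.92, adjusted p = 0.123).

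**Figure D3:**
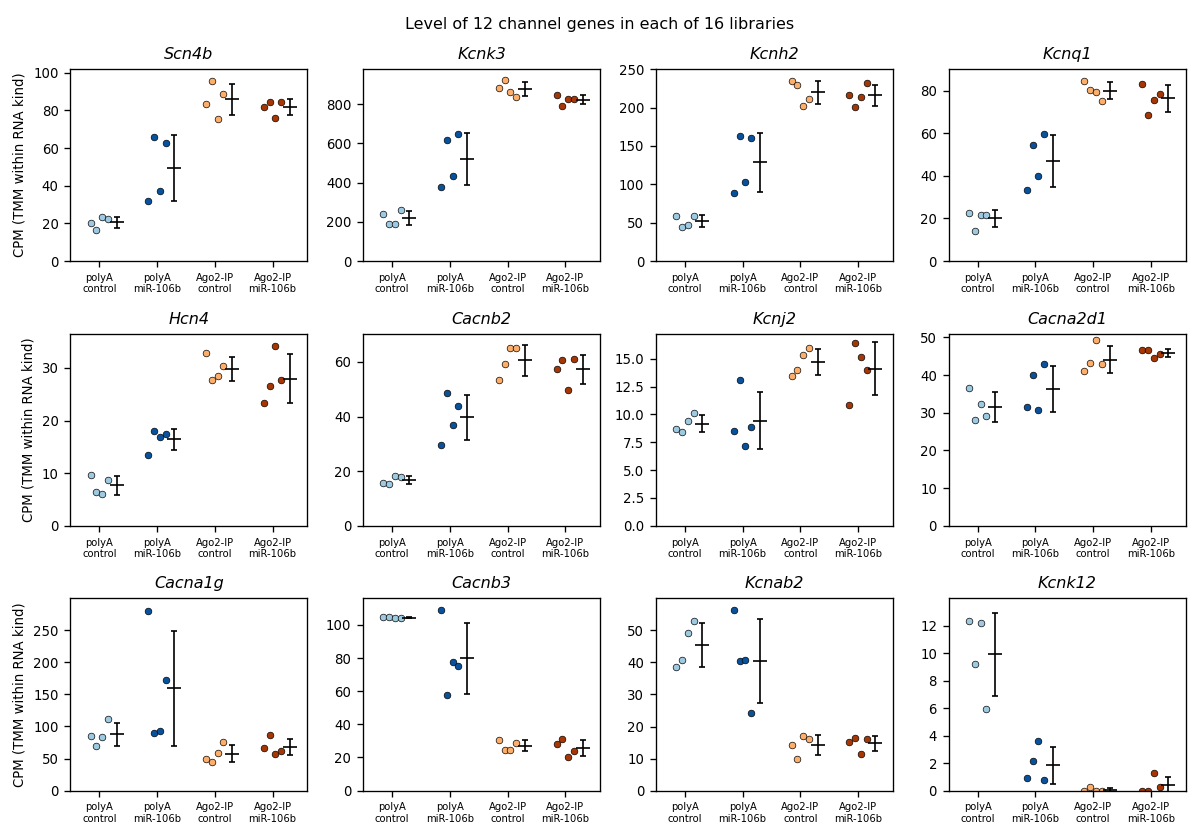
CPM of 12 channel genes in each of the 16 libraries (points, in the order of the replicate numbers within each group), with the mean and SD of each group in black; each panel starts at 0. Scn4b, Kcnk3, Kcnh2, Kcnq1, Hcn4 and Cacnb2 show the step from polyA control to polyA miR-106b to Ago2-IP, Kcnj2 and Cacna2d1 overlap between the polyA groups, and Cacnb3, Kcnab2 and Kcnk12 are lower in Ago2-IP than in polyA control, while the libraries of Cacna1g overlap between the RNA kinds.

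Of 10 inward rectifier genes 6 rose and 1 fell. Kcnj11 had 38.6, 29.1, 31.9 and 44.3 CPM in control and 64.3, 96.3, 65.4 and 92.4 CPM in miR-106b libraries, a log2 difference of 1.15 (SE 0.17, adjusted p = 0.000683). Kcnj8, the pore of the vascular form of the ATP-sensitive channel, had 12, 6.82, 10.6 and 11.7 against 12.8, 23, 21.8 and 28.2 CPM and rose by 1.05 (SE 0.25). Kcnj12, one of the channels of the resting inward rectifier current, rose by 1.29 (SE 0.18), from 8.86, 9.44, 9.6 and 12.2 to 19.3, 31, 22.4 and 25.6 CPM. Kcnj3 and Kcnj5, which together form the acetylcholine-gated channel of the atrium, rose by 1.39 (SE 0.32) and 1.11 (SE 0.19). Kcnj3 shares 31.1% of its exon bases with an overlapping annotated gene, and the libraries do not keep strand, so its reads are not certain to be its own. Kcnj2, the other main channel of the resting current, was the exception: 8.7, 8.39, 9.45 and 10.1 CPM in control and 8.51, 13.1, 7.18 and 8.9 CPM in miR-106b libraries overlapped, with a log2 difference of 0.05 (SE 0.21, adjusted p = 0.882), whose sign turned without polyA miR-106b replicate 2.

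Kcnk12 had the lowest log2 difference of the 83 genes, and it is one of the 7 genes that reached the level in 1 group only, polyA control, so part of its fall is given by that choice. It encodes a tandem-pore subunit that forms no current by itself in standard expression systems, and it lies at chr17:87745836-87797994 (ENSMUSG00000050138). Its level was 12.3, 9.23, 12.1 and 5.95 CPM in the control and 0.896, 2.14, 3.59 and 0.742 CPM in the miR-106b libraries. The groups did not overlap, and the log2 difference was -2.40 (SE 0.40, adjusted p = 0.000801); without 1 library at a time it ran from -2.93 to -2.04 and stayed called. Kcnk3 moved the opposite way, from 241, 189, 188 and 260.0 to 377, 618, 434 and 648 CPM, a log2 difference of 1.24 (SE 0.18, adjusted p = 0.000683). Kcnk13, another tandem-pore gene, which is a member through groups other than polyA control, had 1.36 at a low level, 0.643 CPM in control and 1.75 CPM in miR-106b libraries. Its groups overlapped, and its call (adjusted p = 0.0473) was lost without polyA control replicate 2, 3 or 4 or polyA miR-106b replicate 2 or 4, with adjusted p up to 0.149. Kcnk2, a stretch-sensitive tandem-pore channel, did not pass, at 0.34. Kcnk1, on the list of textbook channels, did not reach the level of 1 CPM.

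The other genes that fell did so by less. Kcnj16, an inward rectifier known from kidney tubule and brain, had 3.48, 3.99, 5.55 and 6.65 CPM in control and 1.79, 2.94, 3.86 and 1.85 CPM in miR-106b libraries, with overlap, and -0.89 (SE 0.33, adjusted p = 0.0494); the call was lost in 7 of the 8 fits with 1 library left out, all but the one without polyA miR-106b replicate 3, with adjusted p up to 0.169. It falls outside the naming rule and was chosen after its values were seen, as was Kcnab2 below. Cacnb1, the calcium channel beta subunit of skeletal muscle, had 34, 35.8, 33.7 and 33.8 CPM against 27.6, 26.2, 27.6 and 23 CPM. These groups did not overlap, and the log2 difference was -0.39 (SE 0.12, adjusted p = 0.017). That call was lost without polyA control replicate 1, 2 or 3, with adjusted p of 0.119, 0.157 and 0.121.

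Calcium channel genes were mixed. Of 6 alpha1 subunits 1 rose, none of 3 alpha2delta and none of 4 gamma subunits passed, and of 4 beta subunits 1 rose and 1 fell by edgeR's test; unadjusted p under 0.05 was reached by 3 alpha1, 3 beta, 0 alpha2delta and 0 gamma subunits, beside the 49.1% of all genes. Cacna1h, a T-type channel, rose from 8.38, 7.45, 10.6 and 10.3 to 15.9, 24.4, 16.3 and 24.1 CPM, by 1.13 (SE 0.20, adjusted p = 0.00111). The other T-type channel, Cacna1g, had 85.9, 69.7, 83.5 and 112 CPM in control and 281, 90.5, 93 and 173 CPM in miR-106b libraries. Replicate 1 of miR-106b was the highest and replicates 2 and 3 lay within the control range, and the log2 difference of 0.87 (SE 0.35, adjusted p = 0.0812) did not pass. It passed with DESeq2 (0.91, adjusted p = 0.013), in the fit of all 16 libraries (0.99, adjusted p = 0.025) and without polyA miR-106b replicate 2 or 3 (adjusted p = 0.0334 and 0.0226). Cacna1d, an L-type channel of sinus node and endocrine cells, did not pass either, at 0.43. Cacnb2, the main beta subunit of heart, rose from 15.7, 15.3, 18.1 and 18 to 29.6, 48.4, 37 and 43.8 CPM, by 1.24 (SE 0.16, adjusted p = 0.000683). Cacnb3 had 105, 105, 104 and 104 CPM in control and 109, 57.8, 77.6 and 74.9 CPM in miR-106b libraries, with -0.38 (SE 0.16, adjusted p = 0.066); without polyA miR-106b replicate 1 the difference was -0.50 and passed (adjusted p = 0.00243). Cacna2d1, the alpha2delta subunit of heart and muscle, was at 36.7, 28, 32.4 and 29 and 31.6, 40.1, 30.6 and 43 CPM, with overlap and 0.20 (SE 0.15, adjusted p = 0.301); in the fit of all 16 libraries the difference was 0.32 and passed (adjusted p = 0.0383).

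Of 4 HCN genes 2 rose. Hcn2 went from 38.1, 32.3, 33.4 and 33.2 to 53.1, 49, 40.9 and 79 CPM and Hcn4, the main channel of the sinus node, from 9.65, 6.4, 6 and 8.75 to 13.4, 17.9, 16.8 and 17.4 CPM. Neither pair of groups overlapped. The log2 differences were 0.69 (SE 0.17, adjusted p = 0.00756) for Hcn2 and 1.10 (SE 0.20, adjusted p = 0.00122) for Hcn4.

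Calcium- and sodium-activated potassium channels counted 7, of which 2 rose, beside 19.0% of all genes. These were the small-conductance channels Kcnn1, from 7.43, 7.87, 7.8 and 7.35 to 11.6, 17.1, 14.1 and 21.5 CPM, a log2 difference of 1.06 (SE 0.20, adjusted p = 0.00153), and Kcnn2, from 12.3, 6.82, 6.9 and 7 to 13.7, 26.2, 13.3 and 18.9 CPM, a difference of 1.12 (SE 0.27, adjusted p = 0.00514). Kcnn3 and Kcnn4, of the same family, had 0.75 and 0.85 and did not pass. Without 1 library at a time Kcnn3 ran from 0.14 to 1.25, and Kcnn4 passed without polyA miR-106b replicate 1 (1.12, adjusted p = 0.0385) and in the fit of all 16 libraries (0.97, adjusted p = 0.0463). Kcnma1, the large-conductance channel of smooth muscle, had 2.24 and 3.01 CPM and 0.46 (SE 0.41, adjusted p = 0.398), and its auxiliary subunit Kcnmb1 had 1 and 1.62 CPM and 0.65 (SE 0.48, adjusted p = 0.304). Neither passed.

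Marker genes of other cell types moved with these channels. In polyA RNA 23 of the 24 cardiac markers tested rose with miR-106b, with a median log2 difference of 1.23, and the exception was Myl4, at 0.35. Of the other lists, 8 of 8 endothelial markers (median 1.18), 6 of 6 leukocyte markers (median 1.21) and 8 of 8 fibroblast markers (median 1.16) rose. Of 10 mural and smooth muscle markers 5 rose and 1 fell (median 0.96), the 1 kidney tubule marker tested, Lrp2, fell, and by edgeR's test none of 3 neuron and glia markers changed (0 with an unadjusted p under 0.05) and none of 3 renin cell markers (1 with an unadjusted p under 0.05). Within the miR-106b group the summed cardiac markers were lowest in replicate 1, at 48318 CPM, then 60432 CPM in replicate 3, 80993 CPM in replicate 4 and 83652 CPM in replicate 2, and replicates 2 and 4 were also the highest in Kcnk3, Kcnh2, Kcnq1 and Kcnip2. In bulk RNA, fewer cells of a type and less RNA per cell cannot be told apart. The part of the cardiac marker level in the channel differences was not tested.

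**Figure D4:**
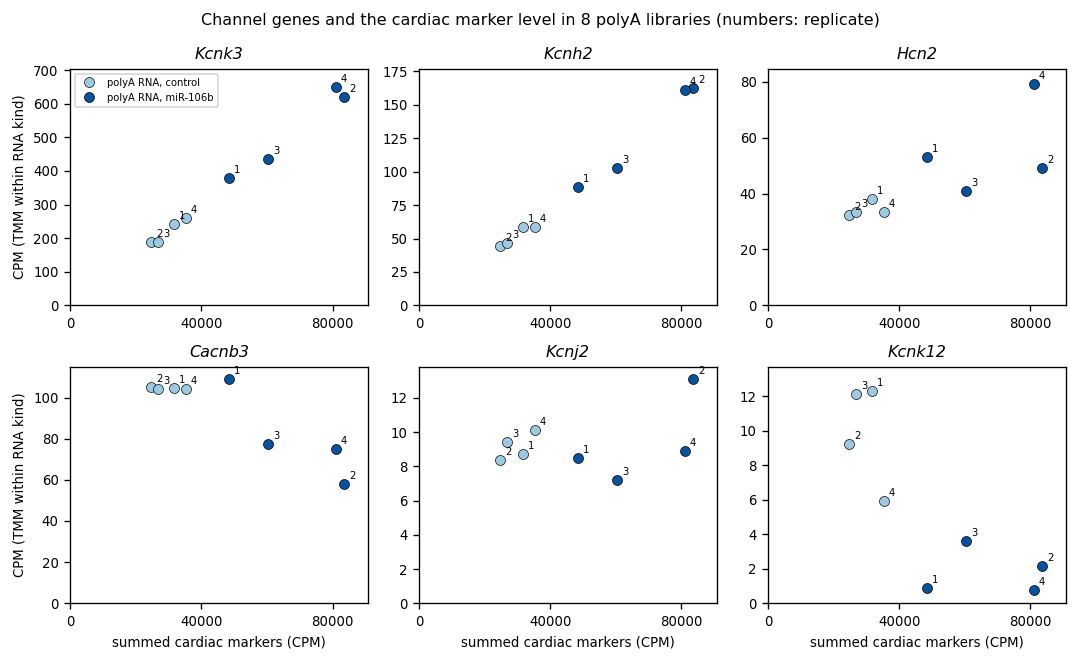
CPM of 6 channel genes in the 8 polyA libraries against the summed CPM of the 25 cardiac markers of the same library, with replicate numbers beside the points. Kcnk3 and Kcnh2 run up with the cardiac sum, with replicates 2 and 4 of miR-106b at the top, Hcn2 does so less evenly, Kcnj2 does not, and Cacnb3 and Kcnk12 are lower in the 3 libraries with the highest sums than in the 4 controls.

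In Ago2-IP RNA no channel gene changed with miR-106b by edgeR's test. None of the 83 passed at an adjusted p of 0.05, 6 had an unadjusted p under 0.05, and DESeq2's Wald test also called 0. Of all genes tested 0.0% passed and 5.54% had an unadjusted p under 0.05. The median log2 difference of the members was 0.03, beside 0.00 for all genes, and 3 of the 83 had groups that did not overlap, beside 3.24% of all genes. The smallest p belonged to Kcng2, with 308, 301, 302 and 261 CPM in the Ago2-IP control and 257, 254, 234 and 256 CPM in the Ago2-IP miR-106b libraries. Its groups did not overlap, since the lowest control stood above the highest miR-106b library, and the log2 difference was -0.23 (SE 0.05, adjusted p = 0.169), unadjusted p = 4.53e-05. Next was Cacna1e, a calcium channel of neurons and endocrine cells, with 2, 1.12, 1.35 and 1.97 CPM in control and 6.21, 4.68, 1.94 and 3.79 CPM in miR-106b libraries, with overlap and 1.33 (SE 0.45, adjusted p = 0.639). Kcnk3, at 883, 921, 862 and 836 CPM in control and 844, 789, 827 and 827 CPM in miR-106b libraries, had a log2 difference of -0.09 (SE 0.04).

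Between the RNA kinds the channels differed widely. In the control transfections 56 of the 83 genes were higher and 12 lower in Ago2-IP than in polyA RNA, where 35.1% of all genes were higher and 34.6% lower and 69.7% were called in all. Of the 55 genes at the level in all 4 groups 41 were higher and 6 lower, and of the other 28 genes 15 were higher and 6 lower; 10 of the 83 reached the level in no polyA group and 7 in no Ago2-IP group. An unadjusted p under 0.05 was reached by 68 of the 83, beside 71.9% of all genes. The median log2 difference was 1.78, beside -0.03 for all genes. Scaling within each RNA kind, or by library size only, moves the median of all genes to -0.34 or -0.35, a shift common to every gene in this comparison. The CPM printed are scaled within each RNA kind, while the fitted differences scale all 16 libraries together. A difference read from the CPM is thus lower by about this shift. At least 2-fold higher were 57 of the 83, beside 24.8% of all genes, and 28 of the 83 fell between 2.0 and 2.5 on the log2 scale, beside 9.09% of all genes. By role, 17 of 23 voltage-gated potassium alpha subunits, 7 of 10 inward rectifiers, 5 of 7 activated potassium channels, 4 of 5 sodium alpha and 3 of 3 sodium beta subunits were higher. Ago2-IP and polyA RNA were prepared differently, so that RNA kind and preparation cannot be told apart. The study's methods name Trizol for total RNA and an ice-cold Nonidet P-40 buffer for the immunoprecipitation.

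The largest excess in Ago2-IP RNA, among genes averaging at least 2 CPM, was that of Kcnk13, Kcnj3, Kcnj12, Kcna1 and Kcnh2. Kcnh2 had 219.8 CPM in Ago2-IP against 52.1 CPM in polyA control, a log2 difference of 2.39 (SE 0.16, adjusted p = 5.25e-11). Kcnj12 had 2.45 (SE 0.16), Kcna1 2.44 (SE 0.38) and Kcnk13 2.73 (SE 0.43), in part given by its choice, since it stayed under the level in polyA control. Kcnk3, with 2.30 (SE 0.14, adjusted p = 2.94e-12), and Kcng2, with 2.35 (SE 0.14, adjusted p = 1.82e-12), were close to the 23 of 24 cardiac markers that were higher, each of which fell between 2.0 and 2.5 (median of the list 2.29). Endothelial, leukocyte and fibroblast markers had medians of 2.24, 2.23 and 2.18, with 8 of 8, 6 of 6 and 8 of 8 higher. Of 3 renin cell markers 1 was higher and 2 lower (median -1.06), of 10 mural and smooth muscle markers 7 were higher and 2 lower (median 1.56), of 3 neuron and glia markers 2 were higher (median 1.73), and the kidney tubule marker Lrp2 was lower, at -3.38. The part of these transcripts in the channel differences was not tested.

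**Figure D5:**
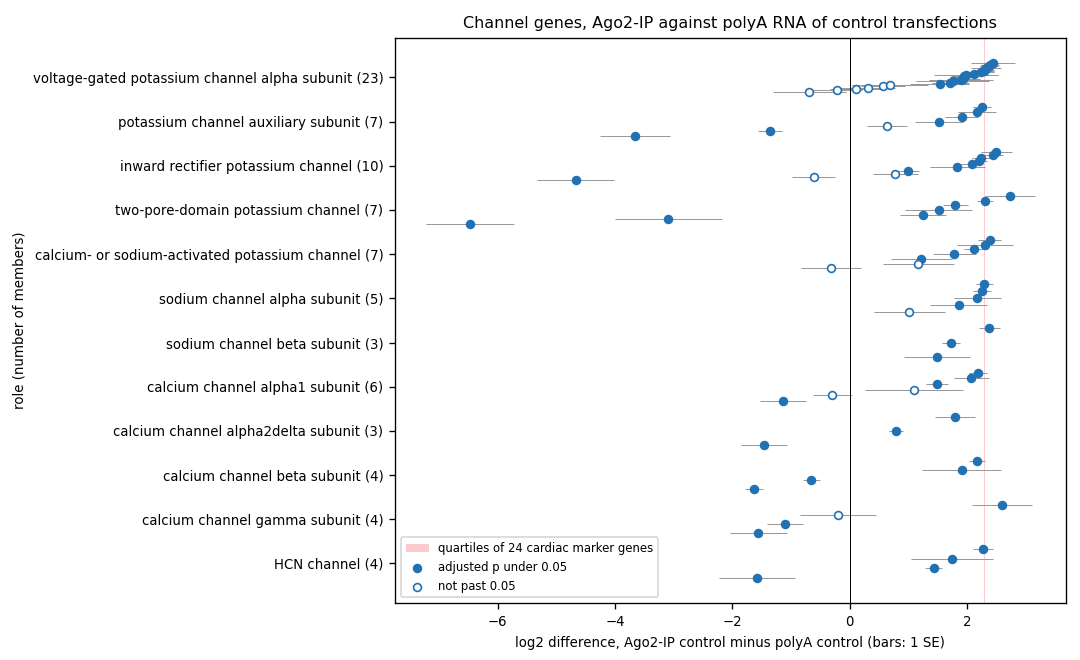
Log2 difference between Ago2-IP and polyA RNA of control transfections (points, bars 1 SE) for the 83 channel genes by role; filled points have an adjusted p under 0.05. The pink band marks the quartiles of 24 cardiac markers, near 2.29, where 28 genes fall between 2.0 and 2.5, while Kcnk12, Kcnj16, Kcnab3 and Kcnk10 lie lowest, and of these Kcnk12, Kcnj16 and Kcnk10 had at most 2 counts in the 4 Ago2-IP control libraries together.

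Of the 12 channel genes lower in Ago2-IP RNA, Cacnb3 had 30.8, 24.6, 24.5 and 28.9 CPM in Ago2-IP control libraries, beside 105, 105, 104 and 104 in polyA control, a log2 difference of -1.63 (SE 0.15, adjusted p = 9.73e-10). Cacng7, a gamma subunit that also accompanies glutamate receptors, had 20.8 against 55.3 CPM and -1.11 (SE 0.31, adjusted p = 0.00501). Kcnab2, a cytoplasmic beta subunit of potassium channels, had 14.3 against 45.3 CPM and -1.35 (SE 0.20, adjusted p = 3.54e-06). Cacna2d4, known from the retina, had -1.46 (SE 0.39), Cacng4 -1.56 (SE 0.49), Cacnb1 -0.65 (SE 0.14) and Cacna1e -1.13 (SE 0.40). Kcnab3, a further beta subunit, had 0, 0.28, 1.08 and 0 CPM in Ago2-IP control and 6.64, 6.4, 3.45 and 5.42 CPM in polyA control. Cacng4 and Kcnab3 stayed under the level in Ago2-IP control, so their place here is in part given by the choice.

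Some of these genes were nearly absent from Ago2-IP control. Kcnk12 and Kcnk10 are members only through polyA control and Kcnj16 only through the polyA groups, so a low level in Ago2-IP RNA is in part given by that choice and their values are a description. Kcnk12 had 1 count in the 4 Ago2-IP control libraries together, beside 281 counts in polyA control, a ratio of 0.00648 after division by the library totals with an exact 95% interval of 0.000164 to 0.0364. Kcnj16 had 2 counts against 135, a ratio of 0.027 (0.00324 to 0.0994). Kcnk10, a tandem-pore channel opened by stretch and lipids, had 2 counts against 46, a ratio of 0.0792 (0.00932 to 0.303). The intervals cover counting error only. Fitted log2 differences of these 3 genes depend on the prior count and are not bounds.

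Differences between the RNA kinds were smaller for several textbook channels. Cacna2d1 had 44.1 CPM in Ago2-IP and 31.5 CPM in polyA control, a log2 difference of 0.79 (SE 0.12, adjusted p = 3.66e-06), which was 0.49 with scaling within each RNA kind and 0.47 by library size. Kcnj2 had 14.7 and 9.17 CPM, a log2 difference of 0.99 (SE 0.18, adjusted p = 3.54e-05). Cacna1g did not pass, at 57.4 and 87.7 CPM and -0.30 (SE 0.33, adjusted p = 0.442), and neither did Kcnma1, at -0.32 (adjusted p = 0.588). Hcn2 had 1.43 (SE 0.14, adjusted p = 2.31e-09), below the range of the cardiac markers that were higher.

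The Ago2:polyA ratio, tested as an interaction term over the 16 libraries, fell with miR-106b in 30 of the 83 genes and rose in 3. Of the 55 genes at the level in all 4 groups it fell in 29 and rose in 1. Over all genes tested, 27.3% were called, 7.61% higher and 19.7% lower. The median was -1.04, beside -0.07 for all genes. The ratio shares its libraries with the comparisons above, and as the Ago2-IP levels of the high channels hardly differed between transfections, their values stand close to the polyA values with the sign turned. Kcnh2 had a change of -1.47 (SE 0.22, adjusted p = 5.03e-05) and Kcnip2 of -1.42 (SE 0.20, adjusted p = 3.34e-05). Among called genes averaging at least 2 CPM, the largest falls were those of Kcne4, a small subunit that inhibits potassium channels, at -1.89 (SE 0.47, adjusted p = 0.00424), Kcnk13, at -1.85 (SE 0.62, adjusted p = 0.0292), Kcnj12, at -1.75 (SE 0.23, adjusted p = 1.80e-05), and Kcnj3, at -1.51 (SE 0.37, adjusted p = 0.00351). Kcnk13 stayed under the level in polyA control, so its fall is in part given by the choice. The call of Kcnk13 was lost in 6 fits with 1 library left out (adjusted p 0.0507 to 0.101). In the same lists of markers, 23 of 24 cardiac (median -1.40), 8 of 8 endothelial, 5 of 6 leukocyte and 8 of 8 fibroblast markers fell.

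The 3 genes whose ratio rose were at low counts in Ago2-IP RNA. Kcnk12 had 0, 0.28, 0 and 0 CPM in Ago2-IP control and 0, 0, 1.29 and 0.292 CPM in Ago2-IP miR-106b libraries, which is 1 count against 5. Its change of 4.49 (adjusted p = 0.0277) rests on these counts and on the fall in polyA RNA, and it uses the polyA control level that alone made the gene a member. The call was lost without Ago2-IP control replicate 1, 3 or 4 (adjusted p = 0.0536, 0.0529 and 0.0592) or Ago2-IP miR-106b replicate 3 (adjusted p = 0.409, value 2.80). Kcnab3 had 0, 0.28, 1.08 and 0 CPM in Ago2-IP control and 0.777, 2.34, 2.26 and 1.17 CPM in Ago2-IP miR-106b libraries, beside 6.64, 6.4, 3.45 and 5.42 and 3.36, 2.94, 5.52 and 1.48 CPM in polyA RNA, and a change of 2.81 (SE 0.85, adjusted p = 0.0154); without Ago2-IP control replicate 3 the change was 4.48. Kcnab3 stayed under the level in Ago2-IP control, so this rise is in part given by the choice. Cacna1e had 4.75, 3.99, 4.35 and 4.72 and 1.34, 2.68, 5.52 and 1.85 CPM in polyA RNA, beside the Ago2-IP values above, and a change of 1.82 (SE 0.56, adjusted p = 0.0176). The groups of Kcnab3 and Cacna1e overlapped in polyA and in Ago2-IP RNA.

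Seed sites were about as frequent in channel genes as elsewhere. A 7mer-m8 or 8mer site of miR-106b-5p lay in the longest 3′UTR of 14 of the 83 genes, 16.9%, and in 1954 of the 13216 tested genes with an annotated 3′UTR, 14.8%. The median length of these 3′UTRs was 2073 bases for the channel genes and 1222 bases for all. An 8mer was present in 4 of the 83, among them Kcnv2, Kcna2 and Kcnk10, and in 4.56% of all. In polyA RNA, 2 of the 14 genes with a site were called, both higher and Kcnv2 among them, with a median of 0.53, beside 35 of the 69 genes without such a site, with a median of 0.95. Among every tested gene whose 3′UTR was searched, 842 of 1954 with a site and 4956 of 11262 without one were called, with medians of -0.12 and -0.04. Kcnv2, with the 8mer site printed above, had 6.85, 12.3, 11.3 and 13.1 CPM in Ago2-IP control and 8.54, 12.3, 12 and 14.6 CPM in Ago2-IP miR-106b libraries, beside the polyA values above, and its ratio changed by -1.34 (SE 0.36, adjusted p = 0.00672). Kcna2 had 0.65 and Kcnk10 -1.05 in polyA RNA, and neither passed. Of the 14 genes, Cacna1e had the only rise of the ratio that was called, beside 2 falls.

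Genes whose products work with these channels were counted from a fixed list. Of 37 partners 26 were tested. In polyA RNA 14 rose and 1 fell (median 0.83), beside 19.0% and 21.5% of all genes. The ratio fell in 14 and rose in none, beside 19.7% and 7.61% of all genes, and 20 were higher and 1 lower in Ago2-IP than in polyA control, beside 35.1% and 34.6%. Abcc8 and Abcc9, the sulfonylurea receptors that complete ATP-sensitive channels with Kcnj11 and Kcnj8, had means of 19.1 and 58.3 CPM in polyA control and 44.4 and 137 CPM in polyA miR-106b libraries, log2 differences of 1.22 (adjusted p = 0.000834) and 1.23 (adjusted p = 0.00104). Cav3, the muscle caveolin that holds sodium channels in membrane pits, had 1.34 (adjusted p = 0.000683), and Fgf13, which binds sodium channel tails, 1.44 (adjusted p = 0.000777). Ank2 and Ank3, the ankyrins that anchor channels to the cytoskeleton, had 0.37 (adjusted p = 0.0157) and 0.20 (adjusted p = 0.176). The gene that fell was Akap9, the scaffold of the Kcnq1 channel, at -0.46 (adjusted p = 0.00608). Nedd4l, a ubiquitin ligase that removes sodium channels from the membrane, was the partner lower in Ago2-IP RNA, at -1.54 (adjusted p = 0.000938). The partners named here were picked after their values were seen.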

How the data were processed

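The authors prepared libraries that do not keep strand, sequenced single reads of 50 bases, removed ribosomal RNA reads, aligned the rest with TopHat2 to the transcriptome of GRCm38 (version 2.0.10 in the submitters' processing notes; the study's methods name another release) and counted reads per gene with HTSeq. The deposited values are raw counts per gene and library, unnormalized and unfiltered. Reads shared by near-identical genes and reads of overlapping genes could not be assigned with certainty.

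Libraries were grouped by their labels, with 4 cultures a group. Genes were kept where 3 or more of the 4 libraries of some group had 1 CPM or more. Differences were tested with edgeR 4.0.16 in R 4.3.3 (quasi-likelihood F test, robust dispersion, TMM scaling, two-sided, Benjamini-Hochberg over all genes tested, threshold 0.05), in 8 polyA libraries, in 8 Ago2-IP libraries, and in all 16 for the Ago2:polyA ratio and for Ago2-IP against polyA control. SE is the size of the log2 difference divided by the root of F. CPM of channel genes were TMM-scaled by RNA kind; library size alone scaled the CPM of markers, their sums and the level rule. Single genes were also compared by exact permutation tests on log2(CPM + 1), over 70 relabellings. Levels per length used the union of GENCODE M21 exons, available for all 83 genes. RefSeq gave the miRNA sequence. The alternatives were DESeq2 1.42.0, other scalings and filters, a replicate block, all 16 libraries in 1 fit and leaving out each library. Simulated counts with known changes served to check the tests.

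The named genes are those with the 8 highest levels per length in either control group, the 6 largest rises and falls in polyA RNA that passed at a mean of 2 CPM with groups apart, the 2 smallest p in Ago2-IP RNA, the 4 largest called changes of the ratio and the 5 of Ago2-IP against polyA each way, textbook channels of heart, vessel and renin cells, genes with a seed site and a called ratio, and those beside the level rule. The members and lists were chosen with earlier results of these data known. Replicate numbers were not taken to pair libraries. Deviations of same-numbered libraries from their group means had correlations from -0.386 to 0.218, which cannot exclude pairing. Some channel genes are not reported by name here.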

Additional observations from a re-analysis of the deposited data

Results flagged for a closer look

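Among 192 groups of 4 libraries examined (48 channel genes in 4 groups each), 16 held 1 library that lay far from the other 3 by Dixon's test at the 95% level; chance gives about 1 in 20. In Ago2-IP control RNA the values standing apart on the high side were 8.76 CPM of Scn7a in replicate 4 (others 6.28 to 6.46 CPM), 0.28 CPM of Kcnk12 in replicate 2 (0 CPM in the others), 0.57 CPM of Kcnk10 in replicate 1 (0 CPM in the others), 37.1 CPM of Cacna1h in replicate 1 (others 32.5 to 32.9 CPM), 5.13 CPM of Cacna2d2 in replicate 1 (others 3.23 to 3.5 CPM) and 21.9 CPM of Cacnb1 in replicate 4 (others 15.7 to 16.7 CPM). In Ago2-IP miR-106b RNA the values standing apart on the high side were 51.6 CPM of Kcna5 in replicate 4 (others 33.9 to 36.1 CPM), 46.4 CPM of Kcnj12 in replicate 4 (others 31 to 32.2 CPM) and 40.8 CPM of Kcnj8 in replicate 4 (others 35.1 to 35.9 CPM). In polyA control RNA the values standing apart on the high side were 12.3 CPM of Kcnn2 in replicate 1 (others 6.82 to 7 CPM) and 35.8 CPM of Cacnb1 in replicate 2 (others 33.7 to 34 CPM). In polyA control RNA the library standing apart on the low side had 14.2 CPM of Kcnq1 in replicate 2 (others 21.6 to 22.8 CPM). In Ago2-IP control RNA the library standing apart on the low side had 261 CPM of Kcng2 in replicate 4 (others 301 to 308 CPM). In Ago2-IP miR-106b RNA the values standing apart on the low side were 234 CPM of Kcng2 in replicate 3 (others 254 to 257 CPM), 0 CPM of Kcnma1 in replicate 3 (others 0.777 to 0.878 CPM) and 0.292 CPM of Cacng4 in replicate 4 (others 1.55 to 1.76 CPM). For Kcnk12 and Kcnk10 these are 1 and 2 counts.

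The effect of miR-106b differed between polyA and Ago2-IP RNA, by the interaction test of edgeR with an adjusted p under 0.05, in 27 of these 48 channel genes, some of which were named for the size of this change; over all 83 it was 33, beside 27.3% of all genes tested. It was lower in Ago2-IP than in polyA RNA in 24 of the 27. On the log2 scale the difference was -1.89 for Kcne4, -1.85 for Kcnk13, -1.75 for Kcnj12, -1.51 for Kcnj3, -1.48 for Kcnk3, -1.48 for Scn4b, -1.47 for Kcnh2, -1.47 for Kcng2 and -1.47 for Cacnb2. It was -1.43 for Kcnq1, -1.42 for Kcnip2, -1.35 for Kcna5, -1.34 for Kcnv2, -1.34 for Kcnn2, -1.34 for Scn4a, -1.33 for Hcn4, -1.31 for Kcnj5 and -1.30 for Cacna1h. It was -1.25 for Kcnj11, -1.25 for Kcnd3, -1.23 for Kcnd2, -1.17 for Kcnn1, -1.11 for Kcnj8 and -0.98 for Hcn2. It was higher, at 1.82 for Cacna1e, 2.81 for Kcnab3 and 4.49 for Kcnk12. The value of Kcnk12 rests on 1 count in Ago2-IP control and 5 counts in Ago2-IP miR-106b libraries. The explanation was not tested.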

How the results depend on the processing

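Counts of changed channel genes kept within 1.5 times the reported count under the alternatives that were run, apart from the cases named here. With no filter on low counts, 1 gene passed in Ago2-IP RNA, beside 20 of all 27811 genes. With at least 10 counts in every library, 37 of 38 genes left to test differed between Ago2-IP and polyA control, since fewer genes were tested. Of all genes left to test, 7897 of 10149 differed there. Leaving out 1 library at a time gave 30 to 41 changed genes in polyA RNA, 0 to 1 in Ago2-IP RNA (1 where replicate 4 of either Ago2-IP group was left out), 31 to 37 for the ratio and 63 to 68 for Ago2-IP against polyA control. Over all 14897 genes these fits called 4126 to 6704, 0 to 40, 3337 to 4808 and 9751 to 10649. DESeq2 called 38 genes in polyA RNA, 36 higher and 2 lower, beside 5903 of all 14897 genes. A fit of all 16 libraries called 42, 41 higher and 1 lower, beside 6237 of all genes.

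With the replicate number as a block, 35 genes changed in polyA RNA, 0 in Ago2-IP RNA, 32 in the ratio and 68 between the RNA kinds. Over all 14897 genes the block called 5511, 1, 3896 and 10187. Whether the numbers pair the libraries is not known. Among single genes followed under the block, Kcne4, Kcnk13 and Kcnj16 lost their polyA call (adjusted p = 0.052, 0.101 and 0.0642), and Cacna1g and Cacnb3 gained one (adjusted p = 0.0308 and 0.0454).

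Some values near 0, none of them called, took both signs when 1 library at a time was left out. In polyA RNA the ranges were -0.53 to 0.20 for Cacng4, -0.020 to 0.75 for Kcnma1, -0.80 to 0.049 for Cacna2d4, -0.12 to 0.49 for Cacng7, -0.16 to 0.19 for Kcnj2 and -0.26 to 0.021 for Kcnab2. For the ratio they were -0.33 to 0.37 for Cacng7, -0.13 to 0.25 for Kcnab2 and -0.36 to 0.061 for Kcnj2. The ratio of Cacng7 was also above 0 with scaling within each RNA kind (0.012), by library size (0.044) and without the filter (0.018). The cause was not tested. Cacnb1 lost its polyA call in the fit of all 16 libraries (adjusted p = 0.12) and without the filter (adjusted p = 0.1). Kcnj16 lost its polyA call with DESeq2 (adjusted p = 0.0799), with DESeq2's size factors (adjusted p = 0.0751), in the fit of all 16 libraries (adjusted p = 0.118) and without the filter (adjusted p = 0.0663), and Kcnk13 lost its polyA and ratio calls without the filter (adjusted p = 0.0935 and 0.106). Calls were gained in polyA RNA by Cacnb3 with at least 10 counts in every library and without the filter (adjusted p = 0.0498 and 0.0487) and by Cacna1e and Kcnab3 without polyA miR-106b replicate 3 (adjusted p = 0.0121 and 0.0353). For the ratio they were gained by Cacnb1 with scaling within each RNA kind and by library size (adjusted p = 0.0437 and 0.0378) and by Kcna1 without Ago2-IP control replicate 1 or 2 or polyA miR-106b replicate 1 (adjusted p = 0.039, 0.0445 and 0.0247). Scn7a gained a ratio call without polyA miR-106b replicate 3 (adjusted p = 0.00722). Counting 7mer-A1 sites (CACTTTA) too gave 21 genes with a site, beside 14. At these depths a gene of under 1 CPM has few counts per library, and a difference there may escape detection.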
